A study of Homo sapiens with 4 samples.

Results

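The cells described here are the BEAS-2B cells that held the fewest UMIs of 13 proliferation genes in their library. The BEAS-2B line was made from the lining of human bronchi and was immortalized, so it grows without end in culture. A UMI is a molecular tag that marks a single captured mRNA molecule, and a barcode stands for a cell. Barcodes with at least 10000 UMIs, at most 10% of them in mitochondrially encoded genes, were ranked. The score of a barcode was the sum of its UMIs in MKI67, TOP2A, TPX2, CENPF, CCNB1, CCNA2, UBE2C, BIRC5, NUSAP1, CDK1, MCM4, MCM5 and CDC6, divided by its total UMIs. Barcodes at or below the 15th percentile of the score within their own library are called low-score cells, and the remaining ranked barcodes of the same library are called the other cells. The rule kept 6480 of 43183 ranked barcodes, out of 68085 in all. There were 1300 low-score cells of 8662 in the control, 1796 of 11968 at 10 mGy, 1803 of 12016 at 100 mGy and 1581 of 10537 at 1 Gy.

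In all, 4 groups of cells were sequenced, with 1 library each. The control received no radiation, and the other groups received 10 mGy, 100 mGy or 1 Gy of gamma rays from a Cs-137 source. All came from the same line, with no added gene or drug named in the labels. Per the study's methods, irradiated cells were cultured for 30 min before the single-cell libraries were made. Because each dose had a single library, dose and library cannot be told apart, and the 4 libraries served below as 4 repeats of the comparison between low-score and other cells. Wherever 4 values are given in a row, they follow the order control, 10 mGy, 100 mGy and 1 Gy. A level is given in CPM, the UMIs of a gene over all UMIs of a cell or group, scaled to a total of 1000000.

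As background, a cell that divides makes its genes in waves. Entry into the cell cycle from G1 is driven by cyclin D and cyclin E with their kinases, which release E2F factors from the retinoblastoma proteins. E2F then turns on genes of DNA replication, such as the MCM helicase, before and during S phase, when histone genes are also transcribed. Genes of mitosis are held down in G1 by the DREAM complex, which binds a promoter element called CHR, and rise in G2 and M phase. The p53 protein raises the CDK inhibitor CDKN1A, which keeps cells in G1 after DNA damage. This is the general scheme, and whether its p53, retinoblastoma and DREAM parts are intact in this immortalized line was not tested. Most of the 13 score genes belong to the G2 and M wave, so a low score can be reached by a cell in G1 or S phase as well as by a cell that has left the cycle.

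The promoters below show the elements at issue for 4 genes, a pair of G2/M genes that fell and a pair of replication genes that rose in the low-score cells by the test given further on. Each window runs from 250 bases before to 50 bases after the start of the gene, is written 5′ to 3′ on the strand of the gene, and comes from RefSeq on GRCh38.p14. Capitals mark CHR (TTTGAA, or its second form TTTAAA), the CCAAT box, or an E2F element (TTTCGCGC or TTTGGCGC), each on either strand. Neighbouring or overlapping matches run together. PLK1, the kinase that drives mitotic entry, is at chr16:23678639-23678938 on the plus strand. HMMR, a spindle protein, is at chr5:163460382-163460681 on the plus strand. DTL, which directs the destruction of the licensing factor CDT1, is at chr1:212035498-212035797 on the plus strand. MCM3, a subunit of the replicative helicase, is at chr6:52284693-52284992 on the minus strand.
PLK1: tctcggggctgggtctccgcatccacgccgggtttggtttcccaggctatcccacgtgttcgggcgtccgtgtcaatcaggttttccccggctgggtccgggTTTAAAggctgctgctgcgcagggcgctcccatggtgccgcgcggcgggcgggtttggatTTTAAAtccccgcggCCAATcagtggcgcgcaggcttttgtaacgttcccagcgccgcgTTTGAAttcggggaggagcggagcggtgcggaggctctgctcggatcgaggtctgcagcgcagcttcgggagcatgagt
HMMR: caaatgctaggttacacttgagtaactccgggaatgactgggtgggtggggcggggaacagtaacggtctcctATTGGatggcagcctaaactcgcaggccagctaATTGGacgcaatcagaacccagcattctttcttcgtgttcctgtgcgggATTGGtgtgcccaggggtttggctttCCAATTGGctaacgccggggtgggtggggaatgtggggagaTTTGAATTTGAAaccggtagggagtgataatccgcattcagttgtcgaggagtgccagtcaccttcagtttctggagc
DTL: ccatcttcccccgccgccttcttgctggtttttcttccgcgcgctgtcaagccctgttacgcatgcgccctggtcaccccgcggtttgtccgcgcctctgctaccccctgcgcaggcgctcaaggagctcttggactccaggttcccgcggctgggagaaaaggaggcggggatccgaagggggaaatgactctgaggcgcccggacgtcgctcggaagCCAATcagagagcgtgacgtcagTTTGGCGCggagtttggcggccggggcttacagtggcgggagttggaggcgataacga
MCM3: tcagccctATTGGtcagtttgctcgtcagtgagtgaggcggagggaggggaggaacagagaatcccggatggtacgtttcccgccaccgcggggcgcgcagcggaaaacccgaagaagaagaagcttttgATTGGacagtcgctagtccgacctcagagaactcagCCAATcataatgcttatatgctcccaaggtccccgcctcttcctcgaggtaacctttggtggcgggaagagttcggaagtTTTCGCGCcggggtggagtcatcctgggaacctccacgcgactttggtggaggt

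These 4 windows were picked because they hold the elements, from the largest falls and from the replication genes that rose. A match is a run of letters and not a shown binding site. A CHR match was found in 54.7% of the 203 genes that fell and had a promoter in the table, in 14.1% of the 305 that rose, in 14.6% of the 6919 genes tested and in 24.3% of all 27305 promoters. The genes that fell thus carried the letters more often than those that rose. The score that chose the cells consists mostly of G2/M genes. Of its 7 G2/M genes with a promoter, 85.7% held a CHR match. Genes tied to the score genes move with the choice of cells, so these shares are a description and not a test. Both a CHR and a CCAAT match stood in 33.99% of the genes that fell and in 6.26% of those tested. Of 49 listed G1/S and replication genes with a promoter, 24.5% held an E2F match, against 2.33% of those tested and 1.18% of all promoters. Among the 305 genes that rose the E2F share was 3.93%, and among the 203 that fell it was 0.985%.

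The score formed a single hump with a shoulder on its upper side in every library, and the 15th percentile cut through its lower slope. The cut lay at 2137, 1634, 1747 and 2243 CPM of score UMIs in the 4 libraries. No ranked barcode was without a score UMI, though free RNA, which was not measured, can give UMIs to cells that do not express a gene. The median low-score cell held 34, 25, 21 and 28 score UMIs and the median other cell 77, 55, 51 and 64. The low-score cells just inside the cut, from the 10th to the 15th percentile, had 2051, 1571, 1674 and 2155 CPM of score UMIs, and the cells just outside it, up to the 20th percentile, had 2210.2, 1694, 1819 and 2323.

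**Figure D1:**
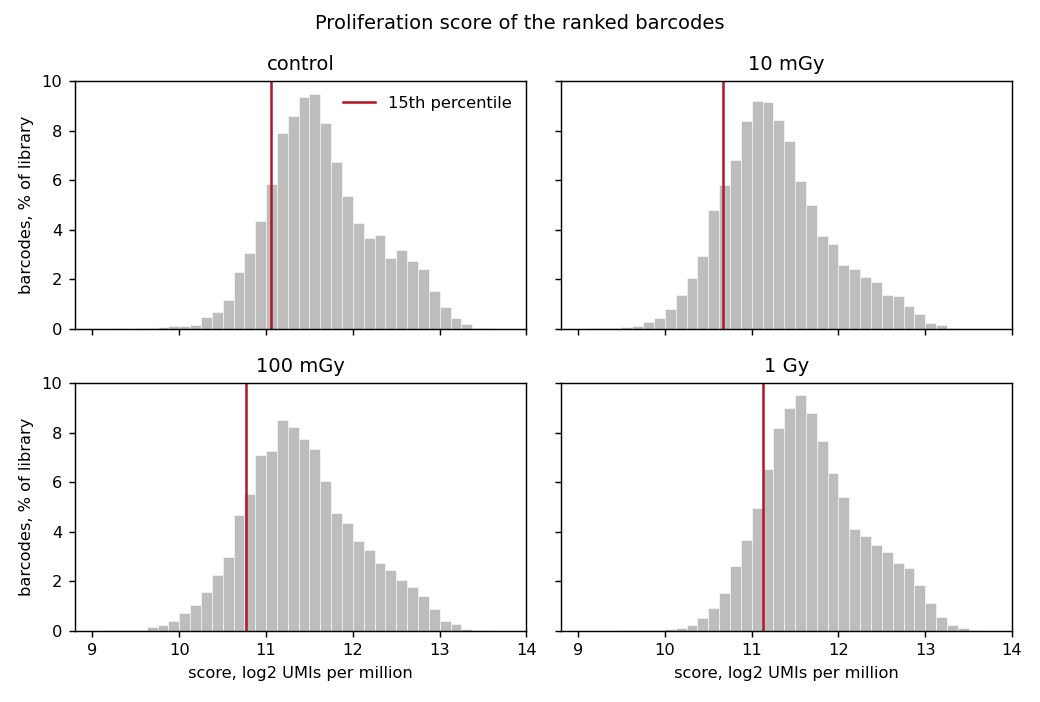
Distribution of the score over the ranked barcodes of each library, as percent of the library's barcodes (vertical axis) by log2 CPM of the score (horizontal axis), with the 15th percentile as a red line. The line falls at 1634 to 2243 CPM, and no gap separates the low-score cells from the rest.

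The low-score cells are thus a range of a score by definition. Counting error in so few score UMIs could hide a gap, so the shape cannot show whether a separate type is among them. Between 5.96% and 6.72% of the ranked barcodes of a library had a score within 5% of the cut. The exact 95% Poisson interval of a barcode's own score, which covers counting error only, reached the cut in 88% to 92.7% of the low-score cells and in 29.8% to 33.3% of the other cells. When the UMIs of each barcode were divided at random into 2 sets, 43.7% to 47.9% of the cells chosen on one set were chosen again on the other, against 15% for unrelated sets. Of the same cells, 90.5% to 93.8% fell below the median of the second set. The counts of a single barcode thus left its side of the cut uncertain for most low-score cells, and the cells chosen on one set lay mostly below the median of the other.

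The score itself was checked against its name. Its 10 G2/M genes were lower in the low-score cells in every library, as the rule requires, with a median log2 difference of -1.27 and a range from -1.64 for TOP2A to -0.85 for BIRC5. Its 3 G1/S genes did not share this difference. CDC6, which loads the replicative helicase, stood at 81.2, 58.2, 52.5 and 77.8 CPM in the low-score cells and 63.3, 53.3, 45.02 and 62.5 CPM in the other cells. MCM5, a subunit of that helicase, stood at 82.5, 76.9, 77.4 and 90.3 CPM in the low-score cells and 72.04, 77.2, 69.4 and 78.9 CPM in the other cells. MCM4, another subunit, stood at 229, 135, 127 and 227 CPM in the low-score cells and 218, 149, 129 and 208 CPM in the other cells. On the CPM scale CDC6 was thus higher in the low-score cells of all 4 libraries, MCM5 was higher in all but the 10 mGy library, and MCM4 was higher in the control and at 1 Gy and lower at 10 mGy and 100 mGy. These 3 genes supplied 7.81% to 9.78% of the score UMIs of a library, and the G2/M genes supplied the rest. All 13 genes chose the cells, and their values are a description without a test.

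The libraries held 211752280 to 285806026 UMIs, of which the ranked barcodes held 197401675 to 265307345. Libraries shared under 1% of their barcodes with any other library. The low-score cells had fewer UMIs, with medians of 18801, 17821, 14056 and 14673 against 22678, 20950.5, 16943 and 17522 in the other cells. They also showed fewer genes per cell, with medians of 5285, 4642, 3980 and 4718 against 5802, 5108, 4436 and 5186. With every barcode thinned to 10000 UMIs and the cells chosen again, the medians were 3778, 3377, 3256 and 3814 against 3802, 3427, 3317 and 3836 genes. That step changed the depth and the choice of cells together. Mitochondrially encoded genes took 6.12, 4.83, 4.59 and 5.96% of UMIs in the low-score cells and 5.89, 4.56, 4.33 and 5.79% in the other cells. Ribosomal protein genes took 14.6, 20.6, 22.7 and 14.4% against 13.8, 19.8, 21.6 and 13.8%. Both shares were slightly higher in the low-score cells of all 4 libraries, and with barcodes of at most 5% mitochondrially encoded UMIs 433 genes were called higher and 314 lower, by the test given next. The part of the ribosomal protein share in those calls was not tested. Doublets were not removed.

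Low-score and other cells were compared gene by gene on UMIs summed per library and side, with edgeR's quasi-likelihood test over the 4 libraries. A gene was called when the Benjamini-Hochberg adjusted p was below 0.05 and the difference at least 1.2-fold. Of 8501 genes tested, 382 rose (4.49%) and 265 fell (3.12%) in the low-score cells, 7.61% in all. The median difference over all genes was 0.01 on the log2 scale. With library sizes in place of TMM factors, the split was 282 higher and 351 lower, since TMM moved all differences up by 0.0288 to 0.0558. Of the 647 called genes, 646 went the same way in all 4 libraries, the exception being SIPA1L2, whose log2 differences were 0.42, -0.01, 0.29 and 0.48 and whose call was lost without the control or the 1 Gy library. An adjusted p below 0.05 without a limit on size was reached by 4942 genes (58.1%, with 32.4% higher and 25.8% lower), most of them with differences too small to be called. The p-values rest on 4 pairs of sums, with 3 residual degrees of freedom per gene. The quasi-likelihood test also borrows spread from all genes, so they do not measure the spread between the 4 pairs alone. Without the library as a block the counts were 19 and 65. The genes were read in the same cells as the score, so genes tied to the score genes move with the choice of cells. When the cells were chosen on one random set of their UMIs and the genes counted in the other set, 339 genes rose and 254 fell, and 548 of the 647 calls were shared.

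The genes of G2 and mitosis outside the score fell almost as a block. Of 61 listed genes, 56 fell and none rose, against 3.12% of all genes tested that fell. Their median log2 difference was -0.92 over the 4 libraries and -0.93, -0.88, -0.93 and -0.90 within them. Summed over the list, the level was 5202, 4828, 5071 and 5499 CPM in the low-score cells and 8852, 7620.4, 8478 and 9103 CPM in the other cells. Free RNA was not removed, and its share in the level of the low-score cells was not tested. Across single low-score cells the 10th percentile of the summed level was 4124, 3887, 3959 and 4383 CPM and the 90th was 6301, 5869, 6217 and 6722. The 90th percentile of the other cells was 14008, 11995, 13458 and 14228.

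AURKA, the kinase that builds the spindle poles, showed the largest fall of the 265 genes called lower. It stood at 80.6, 68.7, 77.8 and 96.5 CPM in the low-score cells and 281, 199.8, 258 and 295.1 CPM in the other cells. Every low-score value lay under every value of the other cells, and AURKA was 3.09-fold lower (log2 difference -1.63 ± 0.027, SE), with an adjusted p of 1.21e-21 by edgeR. Each SE, here and below, was derived from the edgeR test, which borrows spread from all genes. It is not the spread over libraries, where the SD of the AURKA difference was 0.11. PLK1 stood at 33.2, 26.9, 27.4 and 41.2 CPM in the low-score cells and 103, 73.7, 90.2 and 121 CPM in the other cells, with no overlap, and was 2.92-fold lower (log2 difference -1.55 ± 0.029, SE). KIF2C, a kinesin that depolymerizes microtubules, stood at 33.6, 33.01, 43.6 and 41.1 CPM in the low-score cells and 98.03, 82.1, 113 and 104 CPM in the other cells. The differences of KIF2C and of CENPE, a motor at the kinetochore, were both -1.35 on the log2 scale. HMMR differed by -1.29, NDC80, which ties microtubules to the kinetochore, by -1.28, and ASPM, a spindle pole protein, by -1.25. CDCA8, of the chromosomal passenger complex, differed by -1.22, and the spindle checkpoint kinase BUB1B by -1.17. GTSE1, KNL1 and ARL6IP1 complete the 12 largest falls among genes of at least 50 CPM, at -1.13, -1.08 and -1.07. Below 50 CPM, NEK2, a kinase of the centrosome, and CENPA, the centromeric histone, also stood among the 4 largest falls of the list, at -1.48 and -1.44.

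In this list, 5 G2/M genes were not called. PTTG1, or securin, stood at 311, 495, 519.7 and 294 CPM in the low-score cells and 289, 457, 491 and 281 CPM in the other cells, a log2 difference of 0.13, and was the listed gene with a difference above 0. The others were CKS1B at -0.26, TUBB4B at -0.21, LBR at -0.17 and CBX5 at -0.14. Among chromatin and tubulin genes linked to dividing cells, 6 of 24 fell and none rose, against 3.12% and 4.49% of all genes tested. Without the limit on size 21 had an adjusted p below 0.05 by edgeR, 5 of them higher, against 58.1% and 32.4% of all genes tested. HMGB2 fell by 0.92, H2AFX by 0.54, HMGB3 by 0.40 and LMNB2 by 0.34 on the log2 scale, and the list median was -0.06.

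Genes of the G1/S transition and of DNA replication went the other way. Of 57 measured genes outside the score, 18 rose and 2 fell, against 4.49% and 3.12% of all genes tested. With both parts of the score weighted equally, 2 rose and 1 fell. The list median was 0.13 on the log2 scale, and 0.12, 0.08, 0.18 and 0.17 within the libraries. CDCA7, a replication-linked chromatin protein, stood at 53.4, 47.7, 41.9 and 50.99 CPM in the low-score cells and 27.3, 27.2, 21.9 and 28.4 CPM in the other cells. No low-score value overlapped the other cells, and CDCA7 was 1.90-fold higher (log2 difference 0.93 ± 0.030, SE). UNG, which removes uracil from DNA, stood at 38.2, 31.1, 29.8 and 35.4 CPM in the low-score cells and 19.4, 20.5, 15.8 and 19.7 CPM in the other cells and was 1.82-fold higher (log2 difference 0.87 ± 0.045, SE). CCNE2, a cyclin E that drives entry into S phase, stood at 65.7, 49.5, 43.7 and 69.04 CPM in the low-score cells and 38.01, 32.8, 23.5 and 38.8 CPM in the other cells. The sides of CCNE2 did not overlap, and it was 1.75-fold higher (log2 difference 0.81 ± 0.035, SE). DTL stood at 74.7, 63.9, 60.8 and 77.6 CPM in the low-score cells and 50.2, 47.3, 39.6 and 48.4 CPM in the other cells, a log2 difference of 0.61. MCM3 stood at 199, 171, 165 and 203 CPM in the low-score cells and 134, 131, 109 and 132 CPM in the other cells, a log2 difference of 0.58. In both genes the 10 mGy library had the smallest difference of the 4. The 2 listed genes that fell were ZWINT, which serves the kinetochore, at -0.38 and RAD51AP1, a recombination factor, at -0.33.

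The parts of the score chose different cells. When barcodes were taken at or below the 15th percentile of MCM4, MCM5 and CDC6 alone, 8.67% to 13.9% of the low-score cells were among them, in sets of equal size. Unrelated sets of that size would share 15%. In that selection, the G2/M list had a median log2 difference of 0.52 and the G1/S list of -0.31, each opposite in sign to the values above. Of 612 genes called in the low-score cells and measured there, 564 had the opposite sign. G0S2 was at -0.38 and AURKA at 0.99. The 10 G2/M score genes alone gave 432 genes higher and 270 lower, all of the 646 shared called genes with the same sign. A score in which the G2/M part and the G1/S part were each divided by its library mean and added gave 59 genes higher and 129 lower, and 50 of the 103 genes named here and measured there kept their side of the limits. These comparisons were added after the values were seen. Since the G2/M genes supply most of the score, the cells chosen on them alone had to be largely those of the full score.

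Replication-dependent histone genes, whose mRNA is made in S phase, were lower in the low-score cells. Of 21 measured genes 20 fell and none rose, against 3.12% of all genes tested, with a list median of -0.60 on the log2 scale. With the cells up to the 30th percentile taken in, 12 of 23 measured genes fell, with a median of -0.27. With both parts of the score weighted equally, or without the library as a block, none was called by edgeR. The size of the fall varied more between libraries than for any other list, with medians of -0.61, -0.97, -0.54 and -0.30. HIST1H1B, a linker histone, stood at 219, 55.98, 99.1 and 198 CPM in the low-score cells and 385, 141, 166 and 271 CPM in the other cells, which gave log2 differences of -0.77, -1.30, -0.68 and -0.42. The fall was largest at 10 mGy and smallest at 1 Gy. The same libraries were the extremes for HIST1H3B (-0.61, -0.97, -0.61 and -0.29), HIST1H1E (-0.61, -0.95, -0.57 and -0.34) and HIST2H2AC (-0.32, -0.91, -0.35 and -0.05). Without the 10 mGy library HIST2H2AC was at -0.25 and not called. HIST1H1D was not called, with -0.13, -0.74, -0.20 and 0.07, and was on the other side of 0 at 1 Gy. Below 50 CPM, HIST2H2AB, HIST1H4H, HIST1H2BC and HIST2H2BF fell as well, with log2 differences of -0.95, -0.91, -0.82 and -0.81. Histone genes are near-identical copies, and how reads were shared among them was the choice of the counting, so single genes are less certain than the list. The mRNA of these genes mostly lacks a poly(A) tail, which the libraries prime on.

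The histone level also differed among the low-score cells. The summed level of the list in single cells had a median of 1657, 1076, 1441 and 1929 CPM, against 4199, 2906, 4268 and 3407 in the other cells. The 75th percentile of the low-score cells was 3613, 1495, 4311 and 3746 and their 90th percentile was 5599.9, 3355, 6227 and 5152. A minority of low-score cells in each library thus held histone levels like the median of the other cells. The pattern across the whole score was a hump. In the lowest of 20 equal parts of the score the list stood at 1818, 1199.6, 1967 and 2026 CPM, in the 10th part at 5303, 3962, 5303 and 4279 CPM and in the highest part at 1666, 1280.5, 1206 and 1664 CPM. Cells at both ends of the score were poor in histone mRNA.

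Along the same 20 parts, the other G2/M genes increased without a break from 4864, 4574, 4746 and 5161 CPM to 16096, 14645, 15884 and 16184 CPM. The G1/S genes varied less. They stood at 4924, 4509, 4617 and 5161 CPM in the lowest part, at 5487, 5087, 4905 and 5452 CPM in the 5th and at 3572, 3391, 3334 and 3622 CPM in the highest. The lowest part thus had less of them than the 5th, and more than the highest. Cells with the lowest scores were accordingly not the richest in G1/S transcripts in any library.

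**Figure D2:**
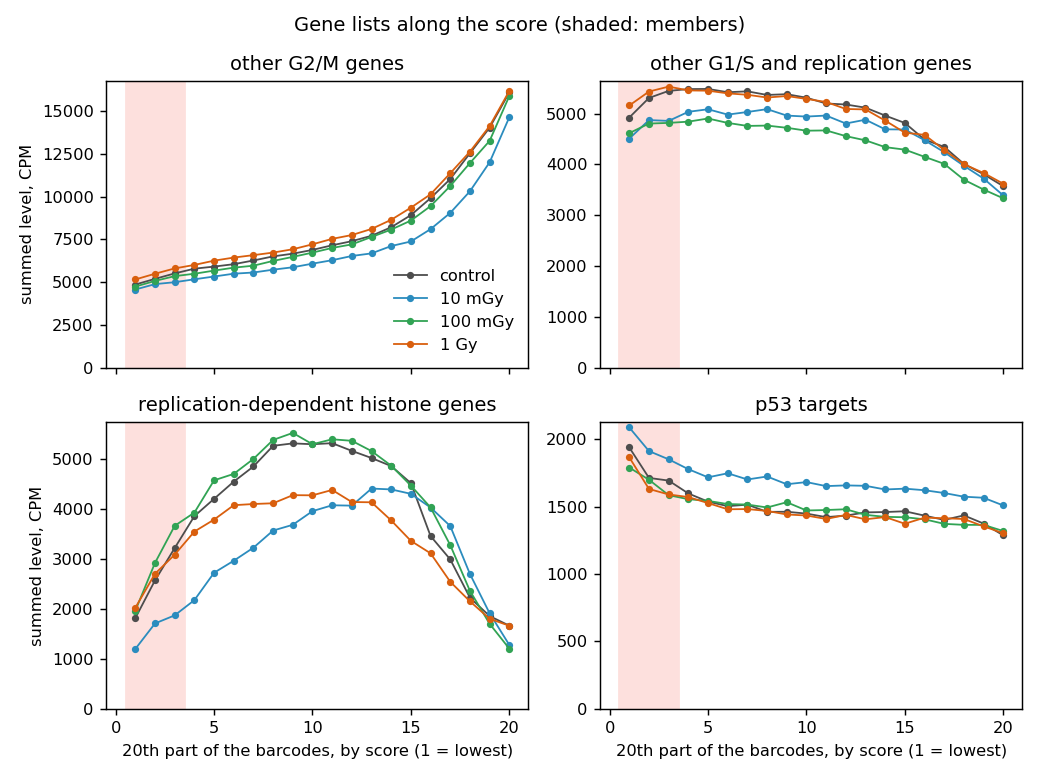
Summed level of 4 gene lists in CPM (vertical axis) over 20 equal parts of the ranked barcodes by score, lowest first (horizontal axis), with a line per library and the low-score cells shaded. G2/M genes increase along the score, G1/S genes are nearly level and then decrease, histone genes peak in the middle, and p53 targets are highest in the lowest part, at 1938, 2086, 1789 and 1864 CPM.

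Among genes that p53 activates, CDKN1A showed the widest difference. CDKN1A, the CDK inhibitor p21, stood at 66.5, 63.03, 51.4 and 54.3 CPM in the low-score cells and 23.00, 26.6, 20.8 and 25.3 CPM in the other cells. The lowest low-score value was above the highest value of the other cells, and CDKN1A was 2.53-fold higher (log2 difference 1.34 ± 0.043, SE), the largest rise among the genes this text names. Its adjusted p was 1.50e-16 by edgeR. Of 21 measured p53 targets 9 rose and 1 fell, against 4.49% and 3.12% of all genes tested, and the list median was 0.17. With the cells up to the 30th percentile taken in, 4 of 21 rose. MDM2, which marks p53 for destruction, stood at 85.4, 36.6, 34.96 and 67.4 CPM in the low-score cells and 57.5, 28.5, 29.05 and 55.4 CPM in the other cells and was 1.34-fold higher (log2 difference 0.42 ± 0.036, SE). TP53I3, an oxidoreductase, stood at 19.9, 27.9, 24.3 and 19.1 CPM in the low-score cells and 13.03, 20.6, 18.00 and 13.4 CPM in the other cells and was 1.44-fold higher (log2 difference 0.53 ± 0.037, SE). The mitochondrial reductase FDXR was at 0.41 and the ribosomal protein paralog RPS27L at 0.34. The other targets that rose were PLK2 at 0.29 and PHLDA3, ZMAT3 and XPC, each at 0.34. After thinning to 10000 UMIs, MDM2 at 0.25, FDXR at 0.19 and PLK2 at 0.26 were no longer past the 1.2-fold limit. POLH, a DNA polymerase that copies past lesions, fell by 0.33. GADD45A at 0.24 and BAX at 0.07 were among the 11 targets that were not called.

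The CDKN1A signal was uneven among the low-score cells. No CDKN1A UMI was found in 61.4, 56.8, 69.8 and 68.2% of them, and 2 or more in 11.4, 16.1, 7.88 and 9.49%. The exact 95% binomial intervals of the latter shares run from 9.71, 14.4, 6.67 and 8.09% to 13.2, 17.9, 9.22 and 11.04%, in the same order. In the other cells 2 or more were found in 9.28, 11.8, 4.94 and 7.59%, at a higher median depth of 26718, 23722, 21675 and 20552 UMIs against 21736, 20066, 17009 and 18728. After thinning to 10000 UMIs, 22.1, 27.3, 20.4 and 22.3% of the low-score cells and 17.1, 20.5, 14.6 and 18.5% of the other cells had a CDKN1A UMI. The libraries hold a single cell line, so no cell type that lacks the gene was there to measure free RNA. The gap in level was thus wider than the gap in the share of cells with a UMI.

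The low-score cells with 2 or more CDKN1A UMIs were rich in MDM2. They held 321, 96.3, 152 and 227 CPM of MDM2, against 47.8, 22.7, 21.5 and 44.2 CPM in low-score cells with none. Among the other cells, those with 2 or more CDKN1A UMIs held 82.9, 35.6, 67.02 and 96.3 CPM and those with none 54.4, 27.2, 26.8 and 50.8 CPM. RPS27L showed the same order in the low-score cells, with 644, 1111, 909.8 and 673 CPM against 455, 856, 698 and 474 CPM. The G1/S list gave 5000.2, 4717, 4338 and 5020.2 CPM against 5269.8, 4717, 4774 and 5423 CPM, lower with CDKN1A in 3 libraries and nearly level at 10 mGy. In the other cells the list went the other way, with 5129, 4844, 4685 and 4952 CPM in those with 2 or more CDKN1A UMIs against 4814, 4541, 4305 and 4794 CPM in those with none. G0S2 was slightly lower in the low-score cells with 2 or more CDKN1A UMIs in all 4 libraries, and slightly higher in such other cells. These cells were sorted on CDKN1A itself and the values are a description, as each group comes from the same library. Low-score cells without a CDKN1A UMI had no more MDM2 than the other cells without one.

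After the values were seen, the low-score cells were also sorted into 3 equal parts by their G1/S list. CDKN1A stood at 114, 96.5, 89.4 and 80.97 CPM in the part lowest in G1/S transcripts, at 41.97, 39.9, 24.2 and 38.6 CPM in the middle part and at 41.03, 53.3, 37.7 and 42.1 CPM in the highest. The lowest part was richest in CDKN1A in every library, and its excess over the other cells was the widest. CCNE2, a member of the list used for sorting, went from 36.4, 24.2, 21.99 and 42.4 CPM to 102, 76.03, 72.6 and 99.3 CPM. G0S2 stood at 484, 278, 281 and 362 CPM in the lowest part and at 375, 234, 205 and 332 CPM in the highest, both above the 248, 163, 134 and 201 CPM of the other cells. SNAI2, GREM1, FILIP1L, THBS1 and IGFBP3 were likewise above the other cells in all 3 parts of every library. The AURKA level differed little, at 84.2, 71.7, 85.6 and 96.5 CPM in the lowest part and 77.5, 67.9, 73.7 and 94.4 CPM in the highest. CDKN1A was thus unevenly spread over the low-score cells, with most of it in the part poorest in G1/S mRNA. The median depths of the lowest and the highest part were close, at 18848, 17376, 14383 and 14847 and 18464, 17624, 13732 and 14474 UMIs.

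**Figure D3:**
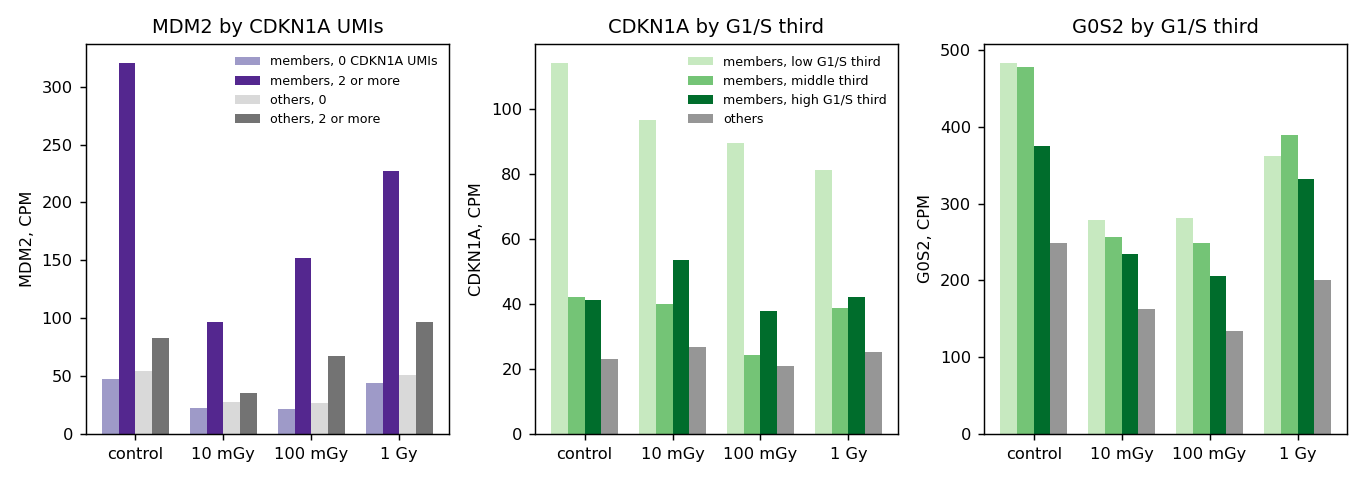
Levels in CPM (vertical axes) per library for MDM2 by the number of CDKN1A UMIs (left), and for CDKN1A (middle) and G0S2 (right) in low-score cells sorted into 3 equal parts by G1/S transcripts, with the other cells in grey. MDM2 is highest in low-score cells with 2 or more CDKN1A UMIs, and CDKN1A in the part lowest in G1/S transcripts, where it stands at 114, 96.5, 89.4 and 80.97 CPM.

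The remaining CDK inhibitors did not follow CDKN1A. CDKN2D, the INK4 protein p19, stood at 12.8, 15.02, 14.02 and 13.4 CPM in the low-score cells and 19.5, 23.9, 23.6 and 19.6 CPM in the other cells and fell by 0.61 on the log2 scale. CDKN1B, or p27, which is known for quiescent cells, was not called and stood at 37.7, 37.5, 31.2 and 36.2 CPM in the low-score cells and 44.9, 43.5, 36.04 and 43.04 CPM in the other cells, a log2 difference of -0.19. CDKN2A, which holds the INK4 protein p16, was at 0.09 and was not called. Among G1 cyclins and their kinases, CCND1 and CCNE2 rose and none of the other 7 was called, beside 4.49% of all genes tested that rose. With both parts of the score weighted equally, neither was called. CCND1, the cyclin D1 of early G1, stood at 124, 66.6, 61.6 and 122 CPM in the low-score cells and 109.6, 51.9, 48.1 and 97.4 CPM in the other cells and was 1.26-fold higher (log2 difference 0.33 ± 0.026, SE). Of 13 RB and DREAM components E2F3 was the 1 gene called, at 0.30, a share not far from that 4.49%, and it was not called after thinning (0.26) or with cells chosen by the other G1/S and G2/M lists (0.13), while E2F4, a DREAM subunit, stood at -0.21.

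Of 21 measured genes linked to growth arrest and quiescence, 7 rose and none fell, against 4.49% of all genes tested that rose. The list median was 0.11 and 0.10, 0.12, 0.12 and 0.10 within the libraries. CITED2, a coactivator that answers hypoxia and cytokines, stood at 86.7, 97.7, 84.1 and 84.3 CPM in the low-score cells and 58.3, 64.04, 55.4 and 57.4 CPM in the other cells and was 1.54-fold higher (log2 difference 0.63 ± 0.020, SE). The values of CITED2 were close in all libraries and did not overlap. KLF2, a transcription factor of resting cells, stood at 70.8, 53.4, 41.98 and 55.9 CPM in the low-score cells and 48.9, 38.5, 31.5 and 44.2 CPM in the other cells and was at 0.49 on the log2 scale. GAS1 and YPEL3, both below 20 CPM, were each at 0.44, KLF9 was at 0.37, PNRC1 at 0.30 and MXD4 at 0.29 (0.26 and not called without the control). FOXO3, a transcription factor active when growth factors are scarce, was at 0.08 and was among the 14 not called.

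The 12 largest rises were ranked among called genes of at least 50 CPM that moved alike in all 4 libraries, and they came from several functions. G0S2, which blocks the main lipase of fat droplets, led with 447, 257, 246 and 362 CPM in the low-score cells and 248, 163, 134 and 201 CPM in the other cells. It was 1.80-fold higher (log2 difference 0.85 ± 0.025, SE), and higher in each of the 4 libraries, and its adjusted p was 3.72e-17 by edgeR. Along the 20 parts of the score G0S2 went from 471, 274, 294 and 358 CPM in the lowest part to 95.97, 78.2, 55.1 and 92.7 CPM in the highest. FAM111B, a protease that is made in S phase, stood at 94.05, 77.8, 78.3 and 71.05 CPM in the low-score cells and 52.7, 52.02, 44.2 and 40.04 CPM in the other cells. KRTAP2-3, a keratin-associated protein with close paralogs, stood at 101, 59.2, 54.2 and 84.8 CPM in the low-score cells and 62.3, 38.8, 27.95 and 48.8 CPM in the other cells. Both were higher in the low-score cells of each library, by 0.80 and 0.79 on the log2 scale. With cells chosen by the other G1/S and G2/M lists in place of the 13 genes, FAM111B was at 0.23 and not called.

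HMOX1, which breaks down heme, stood at 438, 382, 198 and 492 CPM in the low-score cells and 294.8, 251, 131 and 332 CPM in the other cells and was 1.54-fold higher (log2 difference 0.63 ± 0.015, SE). Along the 20 parts of the score HMOX1 went from 501, 426, 235 and 552 CPM in the lowest part to 176, 162, 84.4 and 197 CPM in the highest. GREM1, a secreted inhibitor of BMP signalling, stood at 339, 168, 104 and 321 CPM in the low-score cells and 229, 112, 66.8 and 212 CPM in the other cells. For GREM1 the libraries differed more than the sides did, since the low-score cells at 10 mGy and 100 mGy lay under the other cells of the control, yet within each library the low-score cells were higher, by 0.60, 0.62, 0.69 and 0.63. FILIP1L was at 0.68 and the transcription factor SOX4 at 0.65. SGK1, a kinase induced by serum and glucocorticoid, and the mismatch repair gene MSH6 were each at 0.63. SNAI2, a repressor of epithelial genes, stood at 62.2, 37.1, 21.9 and 57.3 CPM in the low-score cells and 38.7, 20.2, 11.99 and 35.2 CPM in the other cells and was 1.75-fold higher (log2 difference 0.81 ± 0.033, SE), with a mean below the 50 CPM limit used for the largest rises.

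**Figure D4:**
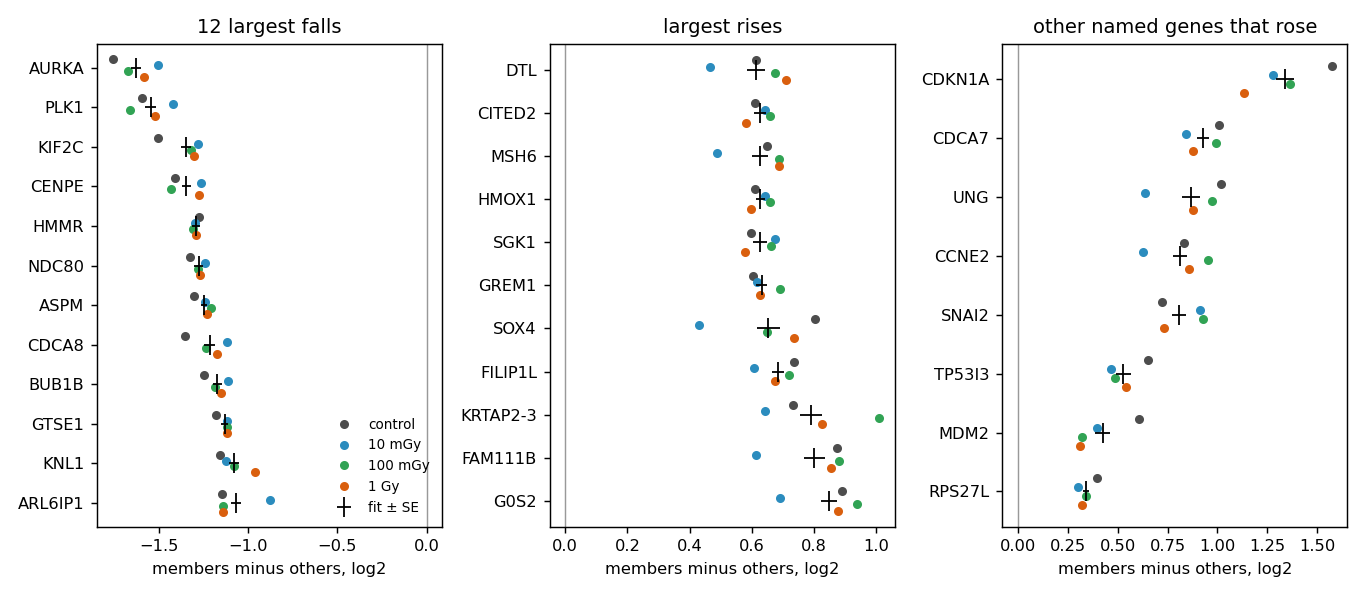
Log2 difference between low-score and other cells (horizontal axes) for the 12 largest falls, 11 of the 12 largest rises and 8 further genes that rose, with a point per library and the edgeR estimate ± SE in black. All points of the falls lie below 0 and all points of the rises above 0, which the ranking required for the largest falls and rises. CDKN1A reaches 1.57 in the control.

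Secreted and matrix genes rose in part. Of 24 matricellular, contractile and YAP target genes 5 rose and none fell, against 4.49% and 3.12% of all genes tested. THBS1, or thrombospondin, stood at 1005, 389, 373 and 967 CPM in the low-score cells and 729.9, 298, 278 and 670.1 CPM in the other cells and was 1.41-fold higher (log2 difference 0.49 ± 0.017, SE). Along the 20 parts of the score THBS1 went from 1040, 396, 390 and 1039 CPM in the lowest part to 466, 208, 210 and 431 CPM in the highest. At 10 mGy the 3 lowest parts had 396, 382 and 388 CPM and the 4th, next to the cut, had 404 CPM. The other genes of the list that rose were EDN1 at 0.39, TGFBI at 0.31, ANKRD1 at 0.30 (0.19 and not called without the 100 mGy library) and TGFB2 at 0.29. Of 15 collagen and laminin genes 4 rose, beside the same 4.49%, among them the laminin chain LAMB3 at 0.39, COL7A1 at 0.32 (0.25 and not called without the 1 Gy library) and COL1A1 at 0.32. Factors that senescent cells secrete went both ways at the 1.2-fold limit. IGFBP3, which binds insulin-like growth factors, stood at 1210.3, 757, 868 and 1249 CPM in the low-score cells and 904, 551, 673 and 918 CPM in the other cells and was 1.38-fold higher (log2 difference 0.46 ± 0.014, SE). VEGFA at 0.47, FGF2 at 0.29 and SERPINE2 at 0.29 also rose, and PLAU fell by 0.49, CXCL1 by 0.41 and CXCL8 by 0.38. Of 20 such genes 4 rose and 3 fell, and without the limit on size 19 had an adjusted p below 0.05 by edgeR, 16 of them higher, against 58.1% and 32.4% of all genes tested.

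Of 22 immediate early genes 3 rose and 2 fell, against 4.49% and 3.12% of all genes tested. Without the limit on size 15 had an adjusted p below 0.05 by edgeR, 12 of them higher, against 58.1% and 32.4% of all genes tested. DUSP1, a phosphatase of MAP kinases, stood at 161, 118, 103 and 162 CPM in the low-score cells and 133, 96.9, 78.7 and 142 CPM in the other cells, a log2 difference of 0.32. ATF3 was at 0.33 and ZFP36 at 0.27, which was no longer called without the 10 mGy (0.22) or the 100 mGy library (0.23), while EGR1 fell by 0.47 and FOSL1 by 0.36. In the cholesterol list 3 of 23 rose, HMGCS1 at 0.41, STARD4 at 0.33 and INSIG1 at 0.31. With cells chosen by the other G1/S and G2/M lists, these 3 were at 0.19, 0.17 and 0.20, ATF3 at 0.19 and FOSL1 at -0.16, and none of the 5 was called. In the heat shock list DNAJB4 rose by 0.34, and HSPA1A and HSPA1B, which share most of their sequence, fell by 0.37 and 0.35. The ATF4 stress list had 1 of 21 genes higher, TRIB3 at 0.41, and the lysosome list 1 of 26, SQSTM1 at 0.32, both shares close to the 4.49% of all genes tested that rose. Most genes of these lists were not called.

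Several lists moved little. Ribosomal protein genes had a median log2 difference of 0.11, with 82 of 84 above 0, and the sole gene called was RPS27L, which is also a p53 target. The 13 mitochondrially encoded genes had a median of 0.09 and all lay above 0. No gene was called by edgeR or by DESeq2 among the mitochondrially encoded, nuclear oxidative phosphorylation, proteasome, glycolysis, interferon-stimulated and ribosome biogenesis lists. At an unadjusted p below 0.05 without a limit on size, they had 12 of 13, 71 of 79, 29 of 37, 10 of 18, 15 of 22 and 17 of 27 genes, against 62.4% of all genes tested. The glycolysis, interferon and ribosome biogenesis shares were close to that background. The list medians ran from -0.03 to 0.09. The nuclear RNA NEAT1 stood at 4414, 3375, 2467 and 5181 CPM in the low-score cells and 3806, 3007, 2152 and 4436 CPM in the other cells, a log2 difference of 0.24, under the 1.2-fold limit. MYC, which drives growth, was at 0.15.

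**Figure D5:**
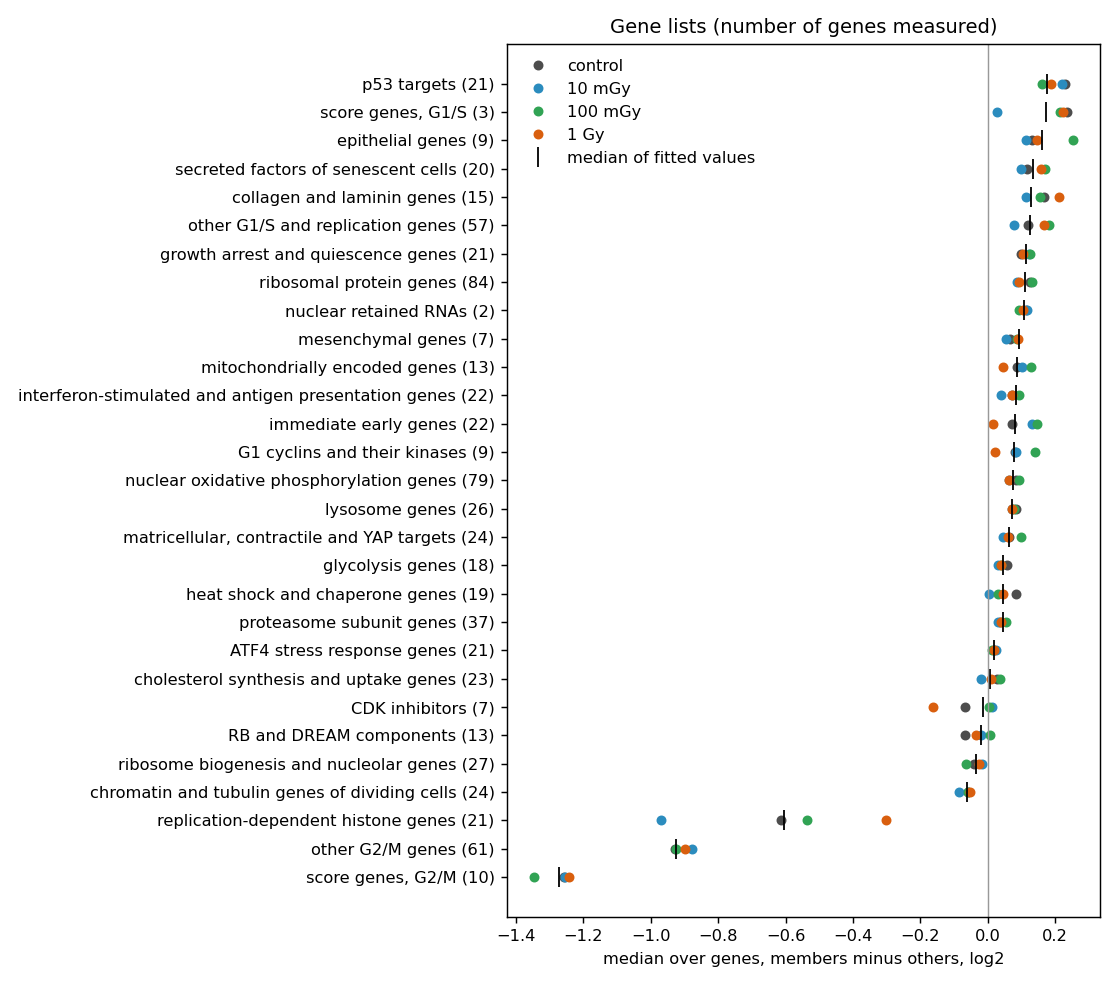
Median log2 difference between low-score and other cells over the genes of each list (horizontal axis), with a point per library and a black bar for the median of the fitted values, and the number of measured genes is in brackets. The histone list spreads from -0.97 at 10 mGy to -0.30 at 1 Gy, and the remaining lists shown outside the score and the G2/M genes lie within 0.3 of 0, the single measured marker of other cell types being left out.

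The cells were checked for the markers of the line and of other cell types. The keratins KRT7 (495 to 700.3 CPM), KRT8 (242 to 288 CPM) and KRT18 (217 to 326 CPM) were present on both sides in all libraries. The epithelial adhesion genes CDH1 and EPCAM were nearly absent, at no more than 0.0563 and 1.34 CPM, and KRT5, the basal keratin, reached 0.0382 CPM. VIM, a mesenchymal filament, stood at 2772, 2593, 2398 and 2403 CPM in the low-score cells and 2672, 2485, 2347 and 2305 CPM in the other cells. KRT19, another keratin, reached 2.79 CPM at most. Low-score and other cells shared this pattern of presence and absence, but levels differed. Of 9 measured epithelial and 7 mesenchymal genes, 1 each rose and none fell, against 4.49% of all genes tested that rose. Without the limit on size 8 and 5 had an adjusted p below 0.05 by edgeR, all higher. Of all genes tested 58.1% reached that limit and 32.4% were higher. The list medians were 0.16 and 0.09 on the log2 scale. Of 12 markers of blood, endothelial and stromal cells, all but COL1A1 were below 10 CPM and were not tested. The leukocyte marker PTPRC and the endothelial marker PECAM1 reached 0.106 and 0.0393 CPM at most. The defining blood and endothelial markers were thus at or near 0 on both sides.

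Because the percentile was taken within each library, the share of low-score cells is the same at every dose by construction. With the threshold of the control applied to all libraries, 38.5% of the ranked barcodes at 10 mGy were at or below it (exact 95% binomial interval 37.6% to 39.3%). The share was 30.3% at 100 mGy (29.5% to 31.1%) and 11.99% at 1 Gy (11.4% to 12.6%), beside 15.01% in the control. Intervals cover counting error only. The limits on UMIs and mitochondrially encoded UMIs kept 78.0, 55.6, 60.2 and 67.9% of the barcodes for ranking, so the shares come from unlike parts of the libraries. Thinned to 10000 UMIs, where the threshold was taken again, the shares were 17.7, 39.8, 31.9 and 14.3%. The order of the libraries was kept. The whole score was shifted, with medians of 3061, 2385, 2638 and 3227 CPM, and ribosomal protein genes took a larger share of UMIs in the 10 mGy and 100 mGy libraries. Each dose had 1 library, so the difference has no replicate check.

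Low-score cells of irradiated libraries were set beside those of the control gene by gene, without a test, since each dose had 1 library. At 10 mGy, 1288 of 8514 genes were at least 1.2-fold higher and 4583 lower. At 100 mGy the counts were 1181 and 5085, and at 1 Gy 260 and 143. The totals were 5871, 6266 and 403 genes in the low-score cells and 5786, 6172 and 185 in the other cells. The summed low-score cells held 25434595 to 34349308 UMIs per library and the summed other cells 171967080 to 230958037. Counting error is larger in smaller sums, and its part in these totals was not tested. The split into higher and lower genes depended on the scaling. TMM factors, which centre the ratios, gave 2500 higher and 2473 lower at 10 mGy, 2662 and 2684 at 100 mGy, and 126 and 281 at 1 Gy. Sums without ribosomal protein and mitochondrially encoded genes gave 1528 and 3970 of 8417 at 10 mGy, 1499 and 4338 at 100 mGy, and 233 and 153 at 1 Gy. The difference between low-score and other cells departed from that of the control by 1.2-fold or more in 136, 128 and 59 genes. Thinned to 10000 UMIs, the counts of such departures were 271, 255 and 150. Between 0.693% and 1.60% of the genes thus passed this limit at full depth. Counting error of every sum enters such a difference, and its part in these counts was not tested.

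NNMT, which methylates nicotinamide, was among the genes with the highest ratios at 10 mGy and at 100 mGy. Its ratio to the control at 10 mGy was 2.22 in the low-score cells (exact 95% interval 2.10 to 2.34) and 2.49 in the other cells. Each interval of a ratio, here and below, covers the counting error of summed UMIs only and holds no spread between libraries or cells. The mitochondrially encoded MT-ND6 was among the lowest ratios at 10 mGy and 100 mGy and among the highest at 1 Gy. Its ratio at 100 mGy was 0.146 in the low-score cells (exact 95% interval 0.138 to 0.155) and 0.159 in the other cells, and at 1 Gy 1.38 in the low-score cells (exact 95% interval 1.34 to 1.42) and 1.41 in the other cells. The cadherin FAT1 and the cytoskeletal linker DST were lower than the control at 10 mGy and 100 mGy, at 0.313 and 0.361 of the control at 10 mGy. In these genes both sides went the same way. The linker histone HIST1H1B had a ratio at 10 mGy of 0.256 in the low-score cells (exact 95% interval 0.243 to 0.269) and 0.367 in the other cells. HIST1H1E was at 0.359 in the low-score cells (exact 95% interval 0.341 to 0.379) and 0.453 in the other cells, and HIST1H4C at 100 mGy was at 2.28 in the low-score cells (exact 95% interval 2.25 to 2.32) and 1.86 in the other cells. PSMD14, a proteasome subunit, was among the highest ratios at 1 Gy, at 1.32 in the low-score cells (exact 95% interval 1.27 to 1.37) and 1.32 in the other cells. The difference between the sides was not tested in any of these genes.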

How the data were processed

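The authors deposited raw UMI counts per gene and barcode for 4 Chromium 3′ libraries, written by Cell Ranger 7.0.1 per the file headers. The submitters' processing notes also name STAR and the build GRCh37, without a role, and whether intronic reads were counted is not given in the sources used here. Groups were taken from the labels. UMIs were summed over the low-score and over the other barcodes of each library, and the 8 sums were tested with edgeR 4.0.16 (R 4.3.3) with TMM factors, the library as a block and at least 10 CPM on average. Since both sums of a pair come from 1 library, the pairing is given by the design. DESeq2 1.42.0, other thresholds and filters, and leaving out each library were alternatives. On simulated counts with 200 changed genes, 97.5% to 100% of those were called for each fold size, and 0 of 8314 unchanged genes. The fold of each gene was set beforehand, and the choice of cells by a score was not tested with these counts. Doublets were kept, and free RNA was not removed.

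The choice of cells and the gene lists were made with earlier results of these data known. Genes are named by these rules: the 13 score genes, the 12 largest rises and falls among called genes of at least 50 CPM that moved alike in 4 libraries, up to 4 genes per list with the largest difference, the 5 of at least 50 CPM with the widest range over libraries, and for doses the 5 highest and 5 lowest ratios of at least 100 CPM. Genes named outside these rules, such as PTTG1, MCM3, CDKN2A and the lesser members of lists, were chosen after their values were seen. Some genes that the rules name are not reported here. Promoters came from RefSeq and were matched by symbol. Python 3.11.15 with numpy 2.4.6, scipy 1.17.1 and pandas 2.3.3 made the sums, intervals and motif counts.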

Additional observations from a re-analysis of the deposited data

Results flagged for a closer look

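Among the genes named in the text with their difference, 3 had values on both sides of 0, on the CPM scale as well as with TMM factors. MCM5 did so on the CPM scale alone and is not counted. For the 3 genes the difference between low-score and other cells was lowest at 10 mGy and highest at 1 Gy. HIST1H1D, a linker histone, was at -0.74 on the log2 scale at 10 mGy, where the low-score cells were lower, and at 0.070 at 1 Gy, where they were slightly higher. MCM4, a score gene of the replicative helicase, was at -0.11 at 10 mGy and at 0.16 at 1 Gy. SIPA1L2, which was called higher, was at -0.0082 at 10 mGy and at 0.48 at 1 Gy. Each library is the only one of its dose, and the difference between libraries was not tested.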

How the results depend on the processing

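Under each alternative that gave them a value, the median difference of the other G2/M genes stayed below 0 and that of the G1/S genes above 0, except with cells chosen on the 3 G1/S score genes alone (0.52 and -0.31). With cells chosen on the other G1/S and G2/M lists these medians were not computed. The counts of 382 higher and 265 lower genes became 2751 and 2191 without a fold limit, 33 and 100 at 1.5-fold, 1135 and 876 without the filter on low counts, 19 and 65 with no replicate block (the library), and 59 and 129 with both parts of the score weighted equally, an alternative chosen after seeing the data. Leaving out each library gave 364 to 406 higher and 273 to 296 lower. The G2/M median of -0.92 was -0.96 without TMM factors, -0.998 without the filter, -1.03 at the 5th and -0.90 at the 30th percentile, -0.96 at 5% mitochondrial UMIs or fewer, -0.78 among barcodes of 10000 to 20000 UMIs, -0.53 with equal weights, -0.87 after thinning and -0.85 with the UMIs split, and -0.93 to -0.91 without 1 library. The G1/S median of 0.13 was 0.063 without the filter, 0.17 at the 30th percentile, 0.033 with equal weights and 0.11 to 0.14 without 1 library. The ratio of median UMIs, 0.837, became 0.949 among barcodes of 10000 to 20000 UMIs, and that of detected genes, 0.907, became 0.965 there and 0.989 after thinning. For doses, TMM factors gave 2500 and 2473 genes higher and lower at 10 mGy, 2662 and 2684 at 100 mGy, and 126 and 281 at 1 Gy, and thinning gave 271, 255 and 150 departures. Shares under the control threshold were 17.7%, 39.8%, 31.9% and 14.3% after thinning. HIST1H1D turned to 0.064 at the 30th percentile and BAX to -0.0039 without the filter. Of 106 named genes outside the score, 106 kept their side of the limits with DESeq2, 98 after thinning and 98 with the UMIs split, 96 without TMM factors, 81 without the filter, 53 at 1.5-fold, 62 of 78 with cells chosen by the other lists, 50 of 103 with equal weights, 35 with no replicate block, and 102 or 103 without 1 library. At the 30th percentile MDM2 was at 0.13 and FDXR at 0.18, both no longer called. With cells chosen by the other G1/S and G2/M lists, CXCL1 (-0.22), FGF2 (0.22), TGFB2 (0.21), SERPINE2 (0.23), DNAJB4 (0.24), XPC (0.22), PLK2 (0.18) and ZFP36 (0.22) were also no longer called. The histone count of 20 (median -0.60) was 15 with the UMIs split, 12 of 23 at the 30th percentile (-0.27), and 0 by edgeR with equal weights (-0.12, 21 of 23 at an unadjusted p below 0.05) and with no replicate block (8 of 21). The G1/S counts of 18 higher and 2 lower were 2 and 1 with equal weights and 5 and 0 with no replicate block, and the G2/M count of 56 lower was 52 and 36. With equal weights the growth arrest count of 7 and the matricellular count of 5 were each 2, and none was called by edgeR among the G1 cyclin, secreted, collagen, immediate early, cholesterol and heat shock lists, with 4 of 9, 15 of 20, 9 of 15, 14 of 22, 7 of 23 and 11 of 19 at an unadjusted p below 0.05. The share of all genes at that unadjusted limit is not given for equal weights or no replicate block. The 62.4% above belongs to the main fit, so these list counts stand without a background. The p53 target count of 9 was 7 with the UMIs split, 6 after thinning, 4 at the 30th percentile and with equal weights, and 1 with no replicate block. The causes of these shifts were not tested. Depth limits the assignment of single cells near the cut.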
